A study of Arabidopsis thaliana with 12 samples.

Results

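Among the genes measured on a spot of their own in Arabidopsis thaliana, 68 lay moderately above wild type (WT) in the tpt1 mutant, between 1.42-fold and 2.32-fold. They were chosen from 3439 spots by the values described here. A spot had to carry an annotation to exactly 1 gene, a reading above 0 in all 12 samples, a tpt1 value above the WT value in each of the 6 pairs of samples with the same number, and a mean difference of 0.5 to below 1.22 in log2 intensity. NTRC and AT3G13120 met these terms and were left out by the rule. The differences between tpt1 and WT given for these genes are therefore a description of how they were chosen and carry no test.

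The tpt1 group held 6 samples of the mutant and the WT group 6 samples of the wild type, numbered 1 to 6 in each, and the ecotype of both was Wassilevskija. Per the labels, the chloroplasts of tpt1 have lost most of their transport of triose phosphates. Total RNA was measured on an expression array, and the labels give no tissue, age, growth condition or allele. The labels leave unsaid whether each sample came from its own plants, so the spread between samples may be technical.

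In the light, chloroplasts export triose phosphates to the cytosol through the triose phosphate/phosphate translocator of the inner envelope, in exchange for phosphate. The cytosol makes sucrose from them, and starch is made in the plastid from the carbon that stays. Plants short of this translocator are known to route more carbon through starch, which is broken down to sugars that leave the plastid by other carriers. Most plastid proteins, those of the thylakoid and of plastid gene expression included, are encoded in the nucleus, so a spot of this array can report on them.

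The values were deposited as linear intensities. Medians of log2 intensity lay between -1.42 and -0.88 in tpt1 samples and between -2.38 and -1.72 in WT samples, without overlap, and 385 to 476 spots stood at 0 in a tpt1 sample against 490 to 603 in a WT sample. Arrays were therefore brought to one distribution by quantile normalization, and a level below is a normalized log2 intensity unless it is called deposited. Which part of a difference belongs to the RNA and which to the unlike distributions was not tested. Fewer cells of one type and less RNA per cell cannot be told apart in such samples. The number of arrays limits the precision.

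Of the 692 spots with 1 gene, 478 had all 12 values and 214 did not, so a gene at 0 in any sample could not be chosen. Among the 478, 108 were above WT in every pair (22.6%), of which 27 had a mean difference under 0.5 and 11 one of 1.22 or more. In the window of the mean lay 102 spots, and 32 of them failed in at least 1 pair. The mirrored rule, with tpt1 below WT in every pair and the same limits, was met by 38 of the 478 spots. The 68 chosen genes had a median difference of 0.82 (1.77-fold), where the 478 spots had a median of 0.12. In the plot of difference against level they lie between both limits at levels from -3.10 to 2.14, apart from the 2 brightest above 4. Spots that were not chosen stand in the same band.

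**Figure D1:**
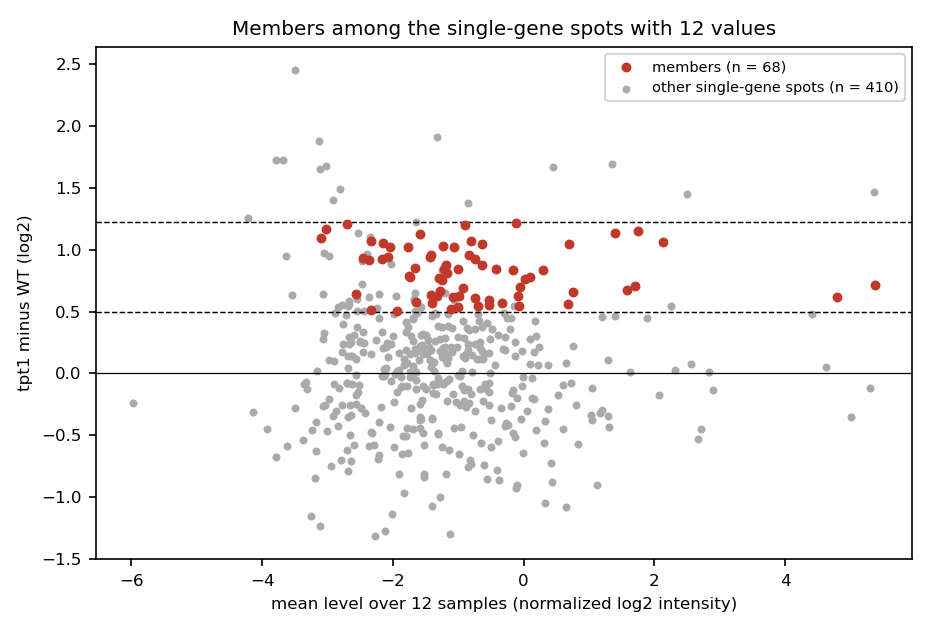
Difference of the means, tpt1 minus WT in log2, against the mean level over 12 samples, for the 478 spots with 1 gene and 12 values. Red points are the 68 chosen genes, grey points the other spots, and dashed lines the limits of 0.5 and 1.22; the 2 brightest chosen genes stand alone at levels above 4.

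Mean levels of the 68 genes over 12 samples ran from -3.10 to 5.38 with a median of -1.03, beside a median of -1.37 for all 478 spots and -0.84 for the 38 mirrored ones. At a mean level below 0 were 55 of the 68. In 22 of them the lowest tpt1 sample was above the highest WT sample, where 6.69% of the 478 spots had such a gap, and in the other 46 the groups overlapped. In limma's fit over all 2849 spots with at least 4 values in each group, 32 of the 68 had an adjusted p under 0.05, beside 6.39% of all tested spots, and 8.77% of tested spots with 1 gene, called higher in tpt1. With neighbouring numbers as a random block it called 8 (1.65% of all tested spots), and with neighbouring samples averaged and no block 0 (0%). In the averaged fit 36 of the 68 had an unadjusted p under 0.05, but no share over all spots stands beside that count. With the sample number as a block limma called 64 (17.5%). Of these 64, 40 were also called with neighbours averaged and the set of numbers as a block, which called no other of the 68 (6.88% of all spots). The rule used the same contrast, so none of these counts is support for the genes.

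The 10 genes with the largest differences ran from 1.07 to 1.21, and they differ in how closely their samples agree. AT2G29870, which encodes an aquaporin-like protein, lay between 0.22 and 0.69 in tpt1 (median 0.58), against -0.91 to -0.57 in WT (median -0.70). Its difference was 1.21 (SE 0.13, n = 6 and 6), and the groups were 0.80 apart at their nearest samples. AT2G36480 was at 1.80 to 2.20 in tpt1 (median 1.96), against 0.62 to 0.94 in WT (median 0.90), with a difference of 1.14 (SE 0.11). It had the widest gap of all 68, 0.86 between the lowest tpt1 and the highest WT sample.

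AT5G40030, a protein kinase gene, was bright in both groups, at 1.67 to 2.61 in tpt1 (median 2.52) and 0.95 to 1.34 in WT (median 1.21). AT4G20820, of the berberine bridge enzyme-like oxidases, was dim, at -2.34 to -1.36 in tpt1 (median -1.71) and -3.28 to -2.36 in WT (median -2.97). In these 2 genes too every tpt1 sample was above every WT sample, with differences of 1.15 (SE 0.17) and 1.07 (SE 0.24). AT2G25870, which encodes a protein related to bacterial YbeY, a factor of ribosomal RNA processing, was at -2.44 to -1.70 in tpt1 (median -2.11) and at -4.07 to -2.39 in WT (median -3.39). Its groups overlapped by a narrow margin, the highest WT sample standing above the lowest tpt1 sample.

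For the remaining 5 of the 10 the groups overlapped widely. RALFL32, a peptide signal of the RALF family, was at -3.09 to -1.59 in tpt1 (median -2.56), against -5.97 to -2.00 in WT (median -3.24). AT5G63460 was at -3.28 to -2.06 in tpt1 (median -2.47) and at -5.36 to -2.67 in WT (median -3.53). In both genes the WT samples were spread over more than the tpt1 samples.

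AT2G47390, a chloroplast glutamyl endopeptidase gene, was at -1.71 to -0.36 in tpt1 (median -1.10), against -4.04 to -0.92 in WT (median -1.83). For AT2G48090 the tpt1 samples lay between -0.82 and 0.29 (median -0.44) and the WT samples between -4.56 and -0.37 (median -0.92). AT4G13680 was at -3.95 to 0.88 in tpt1 (median 0.56), against -6.48 to 0.03 in WT (median -0.27). The lowest value of AT4G13680 was sample 4 in both genotypes, and the lowest of AT2G48090 was WT 3.

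Some differences moved when 1 sample was left out. That of AT4G13680 was 0.03 without WT 4 in place of 1.07 and 1.82 without tpt1 4, but sample 4 was low in both genotypes, and without both its difference was 0.78. That of AT2G48090 was 0.58 without WT 3 in place of 1.20, that of RALFL32 0.70 without WT 3 in place of 1.17, and that of AT2G47390 0.75 without WT 3 in place of 1.13. In all, 9 of the 68 differences moved by over 1.5 times when 1 sample was left out. The other 5 were AT1G01730 (0.19 without WT 5 in place of 0.63), AT1G06730 (0.40 without WT 6 in place of 0.67), AT3G13150 (0.41 without WT 4 in place of 0.64), AT1G32190 (0.33 without WT 2 in place of 0.51) and AT2G37580 (0.34 without tpt1 6 in place of 0.52). Leaving out both samples of a number moved 5 of the 68 by over 1.5 times, AT1G32190 (0.25 without number 2), AT2G48090 (0.70 without number 3), AT5G63460 (0.66 without number 6), AT3G50880 (0.40 without number 4) and RALFL32 (0.78 without number 3). In all 9 genes moved by a single sample the groups overlapped, and 0 of them were among the 32 called in limma's fit without the block.

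**Figure D2:**
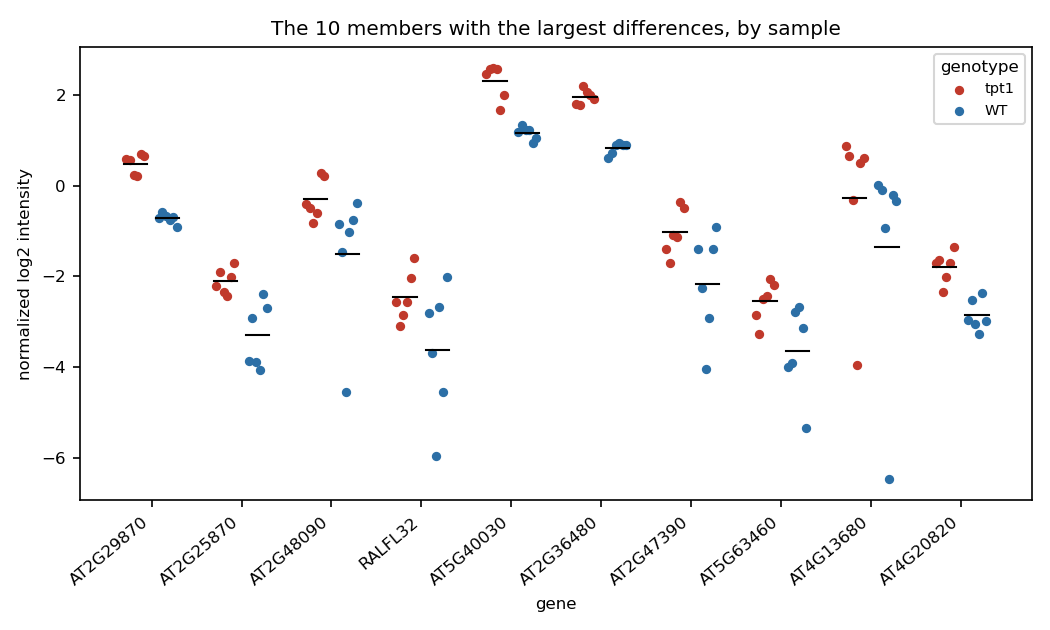
Normalized log2 intensity in each sample for the 10 genes with the largest differences, tpt1 samples (red) left of WT samples (blue), with a bar at each mean. In AT2G29870, AT5G40030, AT2G36480 and AT4G20820 the groups are apart, and in AT2G48090 and AT4G13680 single samples lie far below the rest.

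By what is known of their products, 43 of the 68 genes could be sorted into roles. The roles are general knowledge of the loci, assigned after the genes had been seen. The other single-gene spots were not sorted, so the counts in a role, of genes or of groups apart, have no background to be read against. The rule itself favours groups that lie apart.

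In photosynthesis, 3 genes met the rule. AT1G76450, which encodes a PsbP-domain protein of the thylakoid lumen, was at 1.90 to 3.11 in tpt1 (median 2.98), against 0.86 to 1.99 in WT (median 1.90). Its difference was 1.06 (SE 0.28), and across the 6 pairs it stayed between 0.97 and 1.15. LPA19, a Psb27-type protein needed to process the D1 protein while photosystem II is assembled, was at -1.91 ± 0.21 in tpt1 and -2.83 ± 0.30 in WT (mean ± SD, n = 6 and 6). Cpn60beta4, a chaperonin subunit of the chloroplast needed to fold a subunit of the NDH complex, was at -1.60 ± 0.16 in tpt1 and -2.54 ± 0.41 in WT. The groups of LPA19 and of Cpn60beta4 did not overlap, while those of AT1G76450 did, by 0.09.

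Of 6 genes for nucleic acids in organelles, 3 had groups that did not overlap. AT4G31210, a type IA DNA topoisomerase gene, was at -0.35 ± 0.31 in tpt1 and -1.31 ± 0.22 in WT, a difference of 0.96. AT2G46050, of the pentatricopeptide repeat proteins that bind organelle transcripts, lay between -0.18 and 0.38 in tpt1 and between -1.17 and -0.41 in WT. AT3G46950, of the mTERF family of organelle transcription factors, was at -0.26 ± 0.07 in tpt1 and -0.81 ± 0.14 in WT, so its difference of 0.55 was small but several times the spread of either group.

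The other 3 of these genes had groups that overlapped. AT3G13150, another pentatricopeptide repeat gene and one of the 5 dimmest of the 68, was at -2.56 to -1.90 in tpt1 (median -2.30), against -4.03 to -2.03 in WT (median -2.68). OSB1, which binds single-stranded DNA in mitochondria and limits recombination there, was at -1.68 ± 0.28 in tpt1 and -2.19 ± 0.42 in WT. The YbeY-related AT2G25870 is given above.

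In DNA repair, AT4G12740, a MutY-like glycosylase gene, was at -0.58 ± 0.16 in tpt1 and -1.42 ± 0.33 in WT, and every tpt1 sample was above every WT sample. AT3G50880, a DNA glycosylase gene of another type, was at -1.10 ± 0.38 in tpt1 and -1.73 ± 0.72 in WT, with overlap.

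For transcription and nuclear RNA there were 5 genes, with differences from 0.67 to 1.03. The MADS box gene AGL54 was at -0.72 ± 0.46 in tpt1 and -1.75 ± 0.60 in WT. AT4G31060, of the AP2/ERF transcription factors, was at -0.94 ± 0.30 in tpt1 and -1.89 ± 0.51 in WT. UBA1A, an RNA-binding protein that associates with UBP1, was at -0.58 ± 0.21 in tpt1 and -1.27 ± 0.29 in WT. In AT4G31060 and UBA1A the groups were just apart, by 0.01 and 0.04. The SPOC domain gene AT2G25640 had a difference of 0.75, and LAS, a GRAS regulator that starts axillary meristems, one of 0.67. The groups of AGL54, AT2G25640 and LAS overlapped.

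Of 8 genes for signalling and protein turnover, AT5G40030, RALFL32 and AT2G47390 are given above. The calmodulin-like gene CML30, whose product belongs to the calcium sensors, was at 0.22 to 1.42 in tpt1 and at -0.26 to 0.02 in WT. In samples 5 and 6 its difference averaged 1.36, against 0.70 in samples 1 and 2 and 0.45 in samples 3 and 4. The kelch-repeat F-box gene AT4G39570, of the subunits that choose targets for ubiquitin ligases, was at -0.42 ± 0.20 in tpt1 and -0.97 ± 0.16 in WT. The groups of CML30 and AT4G39570 did not overlap. Those of AT1G22040 (another kelch-repeat F-box gene, difference 0.63), AT2G46850 (a protein kinase gene, 0.62) and AT2G37580 (a RING finger gene, 0.52) did.

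Cell wall genes numbered 4. AT4G18180, of the pectin lyase-like proteins, was at 0.95 ± 0.14 in tpt1 and 0.39 ± 0.11 in WT, and its 6 pair differences stayed between 0.45 and 0.70. GH9B12, of glycosyl hydrolase family 9, had a larger difference, 1.02, with values from -1.99 to -0.27 in tpt1 and from -3.32 to -1.47 in WT. AT1G11820, of glycosyl hydrolase family 17, had a difference of 1.06 and the X8-domain gene AT1G79480 one of 0.94. The groups overlapped in GH9B12, AT1G11820 and AT1G79480, with SDs of 0.63 to 0.98 within them. With arrays centred by their medians, the difference of AT4G18180 was only 0.015, and tpt1 was above WT in 3 of 6 pairs.

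Metabolic enzymes made up 9 of the genes. AT5G62840, of the phosphoglycerate mutase family, was at 0.48 ± 0.24 in tpt1 and -0.30 ± 0.12 in WT, without overlap. The argininosuccinate lyase gene AT5G10920, for the last step of arginine synthesis, was at 1.09 ± 0.36 in tpt1 and 0.43 ± 0.25 in WT. APS4, an ATP sulfurylase of sulfate assimilation, was at -1.35 ± 0.49 in tpt1 and -1.93 ± 0.28 in WT. The groups of AT5G10920 and APS4 overlapped, as did those of the next 5 genes.

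AT4G26770, for a CDP-diacylglycerol synthase of phospholipid synthesis, had a difference of 0.92, which averaged 1.80 in samples 5 and 6 but 0.43 in samples 1 and 2. AT3G04650, of the FAD/NAD(P)-binding oxidoreductases, had one of 0.76 and DRT101, named for tolerance of DNA damage and known as a phosphoacetylglucosamine mutase, one of 0.62. AT1G06730, of the pfkB carbohydrate kinases, had one of 0.67 and AT1G32190, of the alpha/beta hydrolases, one of 0.51. With AT4G20820 above these are the 9, and only AT5G62840 and AT4G20820 of them had groups apart.

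Transport was represented by 4 genes, AT2G29870 among them. AT2G47830, of the cation efflux family of metal carriers, lay between -0.48 and 0.16 in tpt1 (median -0.12), against -1.39 to -1.01 in WT (median -1.13). Its difference was 1.04 (SE 0.14), and the groups were 0.53 apart. AT2G32040, a folate transporter of the plastid envelope, was at 0.30 ± 0.44 in tpt1 and -0.40 ± 0.18 in WT, and AT1G02260, of the divalent ion symporters, at -0.23 ± 0.45 in tpt1 and -0.82 ± 0.62 in WT. In both of the last the groups overlapped.

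Of 2 genes tied to stress or defence, AT4G31470, of the CAP superfamily that holds the PR-1 proteins, was at -0.76 ± 0.24 in tpt1 and -1.57 ± 0.50 in WT, just without overlap. AT1G05340, of the small cysteine-rich transmembrane proteins, was at -1.24 ± 0.42 in tpt1 and -2.09 ± 0.53 in WT, with overlap.

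**Figure D3:**
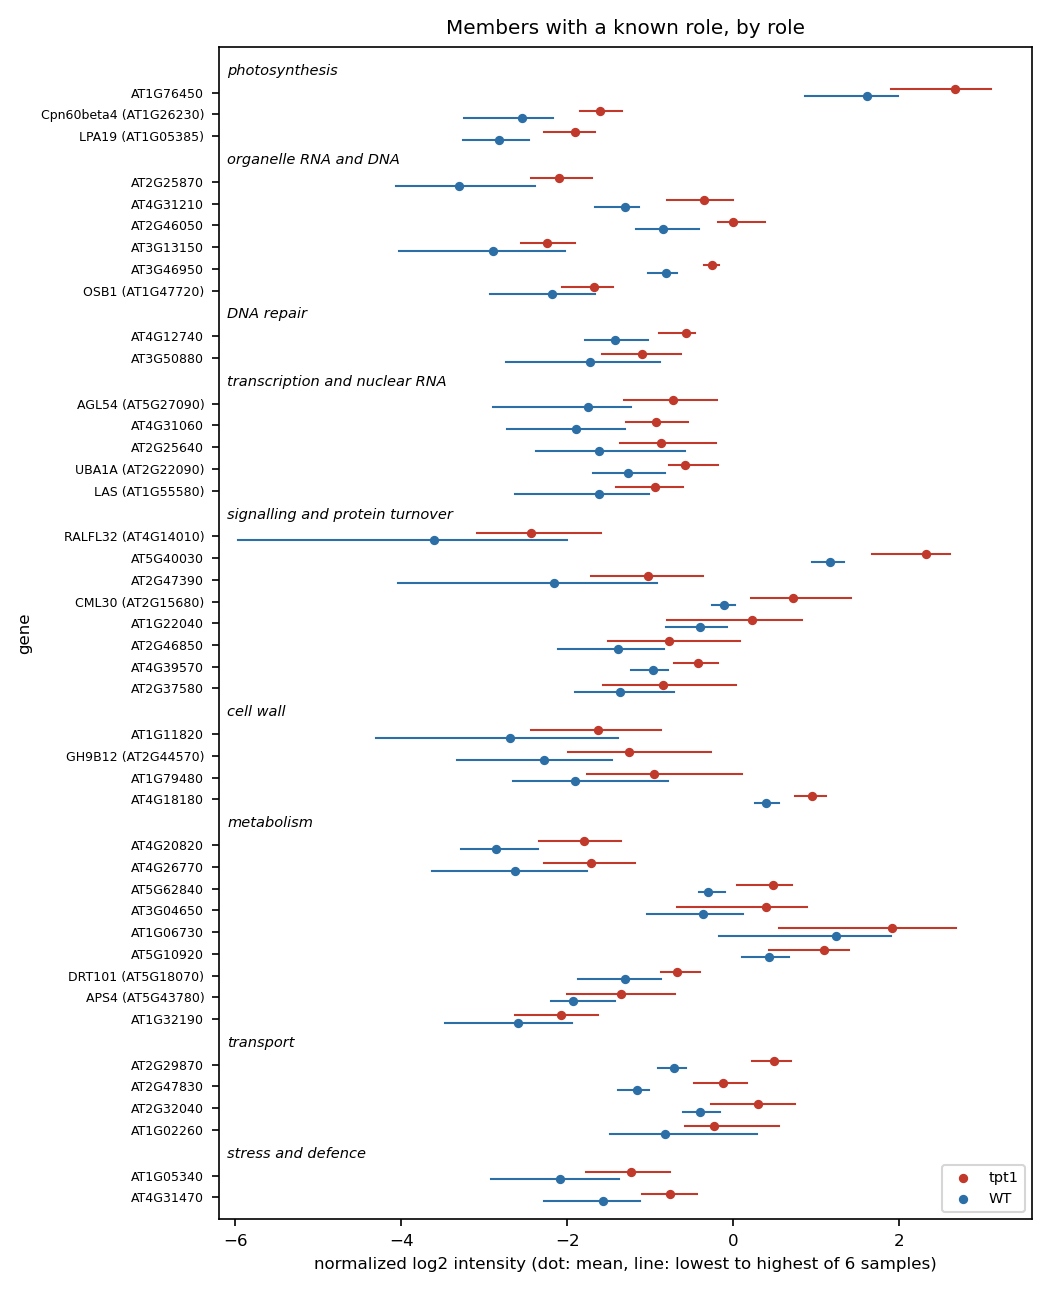
Mean (dot) and lowest to highest sample (line) of the normalized log2 intensity in tpt1 (red, upper) and WT (blue, lower) for the 43 genes sorted into roles, 6 samples a group. Genes within a role lie at quite different levels. Groups are apart in 17 of the 43, beside 6.69% of the 478 spots with 1 gene and 12 values.

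For 25 genes no role is given here, and they include the 2 brightest. AT2G27290 was at 5.05 to 6.15 in tpt1 (median 6.01), against 4.67 to 5.36 in WT (median 5.02). AT4G22830 was at 4.48 to 5.57 in tpt1 (median 5.14), against 4.34 to 4.60 in WT (median 4.49). AT2G46220, the fifth brightest, was at 1.37 to 3.04 in tpt1 (median 1.68) and 0.52 to 1.99 in WT (median 1.45). Each of these overlapped between groups.

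Groups were apart in 5 of the 25, beside 6.69% of the 478 spots. These were AT2G36480, AT4G37420, AT1G04330, AT3G56290 and AT4G17440. AT1G04330, one of the 5 dimmest genes, was at -2.38 to -1.70 in tpt1 (median -1.88), against -4.22 to -2.47 in WT (median -2.70). AT3G56290 was at -0.75 ± 0.16 in tpt1 and -1.63 ± 0.42 in WT, AT4G17440 at 0.26 ± 0.35 in tpt1 and -0.57 ± 0.32 in WT, and AT4G37420 at -1.54 ± 0.25 in tpt1 and -2.56 ± 0.77 in WT, where its nearest samples met.

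The rest of the 25 overlapped. Differences of 0.77 to 1.05 were found for AT5G38310 (1.05), AT4G22650 (1.02), AT3G11150 (0.92), AT3G44570 (0.87), AT5G26850 (0.84), AT1G65090 (0.79), AT2G37880 (0.78) and AT1G73470 (0.77). Those of 0.54 to 0.63 belonged to AT1G01730 (0.63), AT2G41950 (0.61), AT5G40070 (0.57), AT1G03810 (0.57), AT1G21500 (0.54) and AT2G14660 (0.54).

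How far the 68 genes are above WT depended on the scale, and for the brightest so did the direction. On the deposited scale, without further normalization, the median difference of the 68 was 1.48, where that of the 478 spots was 0.87, and with arrays centred by their medians it was 0.62 for the 68 and 0.01 for the 478. On the deposited scale all 68 had a mean difference above 0, and 66 were above WT in all 6 pairs, where 70.3% of the 478 spots were. With median centring 64 had a mean difference above 0, and 53 were above WT in all pairs, beside 17.6%. Limma called 61 of the 68 on the deposited scale, beside 46.4% of all tested spots, and 20 with median centring, beside 4.67%. The 38 mirrored genes had a median of -0.73 after quantile normalization, -0.03 on the deposited scale and -0.89 with median centring.

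With median centring 4 genes turned below 0, the 2 brightest among them. AT2G27290 was at -0.84 and AT4G22830 at -0.75 on that scale, AT2G46220 at -0.11 and AT1G06730 at -0.05. Just above 0 there were AT4G18180 (0.015, tpt1 above WT in 3 of 6 pairs) and AT5G10920 (0.06, in 4 of 6). In deposited units AT2G27290 read 31.8 to 52.7 in tpt1 samples and 35.1 to 47.6 in WT samples, so that the WT range lay inside the tpt1 range, and its mean difference there was 0.03. AT4G22830 read 14.8 to 37.5 in tpt1 and 17.8 to 32.5 in WT, a mean difference of 0.11. On the deposited scale AT2G27290 was above WT in 3 of 6 pairs and AT4G22830 in 5 of 6, so the direction given for both holds after quantile normalization but not with median centring.

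AT2G29870 read 1.34 to 1.84 in tpt1 and 0.338 to 0.609 in WT in deposited units, without overlap there too, with a difference of 1.76 on the deposited scale and 0.90 with median centring. AT5G40030 had 1.16 and 0.30 on these scales, AT1G76450 1.04 and 0.17, and AT2G36480 1.23 and 0.36. The dim RALFL32 had 2.20 and 1.34.

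**Figure D4:**
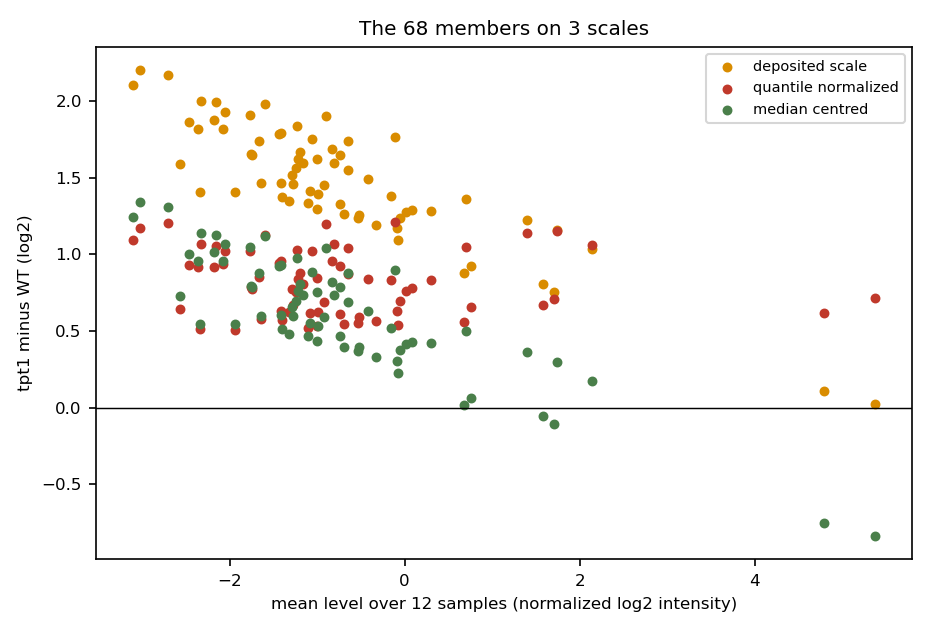
Difference of the means, tpt1 minus WT in log2, against the mean level for the 68 genes on the deposited scale (orange), after quantile normalization (red) and with median centring (green). All deposited differences are above 0, and 4 median-centred ones are below it, the lowest at -0.84 and -0.75 for the 2 brightest genes.

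Taken by number, the median difference of the 68 genes was 0.76, 0.79, 0.77, 0.75, 0.84 and 0.72 in pairs 1 to 6, each over a median of 0.08 to 0.12 for the 478 spots. Neighbouring numbers resembled each other, so the pairs were also averaged as 1 and 2, 3 and 4, and 5 and 6, with medians of 0.74, 0.83 and 0.78. The largest of these 3 values was in 1 and 2 for 24 genes, in 3 and 4 for 27 and in 5 and 6 for 17. In 31 of the 68 it was over 2 times the smallest. The pair differences stayed within 0.3 of each other in 4 genes, AT2G36480, AT1G76450, AT4G18180 and AT1G21500.

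Levels of some genes moved with the number in both genotypes by about as much as the genotypes differed, or by more. AT1G76450 was at 2.95 to 3.11 in tpt1 1 to tpt1 4, but at 2.03 in tpt1 5 and 1.90 in tpt1 6. In WT it was at 1.86 to 1.99 in samples 1 to 4, at 1.03 in WT 5 and 0.86 in WT 6. AT1G06730 and AT1G01730 were also lower in samples 5 and 6 of both genotypes, AT1G01730 at -2.51 and -2.58 in tpt1 and -3.81 and -2.89 in WT, against -0.97 or more in all other samples.

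After the group means were subtracted, the 2 genes closest to AT1G76450 over the 12 samples were AT1G06730 (Pearson r = 0.98) and AT1G01730 (r = 0.95). AT2G27290 was followed most closely by AT2G32040 (r = 0.91) and GH9B12 (r = 0.83), and AT4G22830 by AT5G10920 (r = 0.84) and AT5G62840 (r = 0.77). AT5G40030 was closest to AT1G21500 (r = 0.88) and AT3G04650 (r = 0.86), and AT2G46220 to AT3G44570 (r = 0.86) and AT1G01730 (r = 0.79). These pairs were picked for their likeness out of 67 genes each, the points share arrays and numbers, and the values are a description only.

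**Figure D5:**
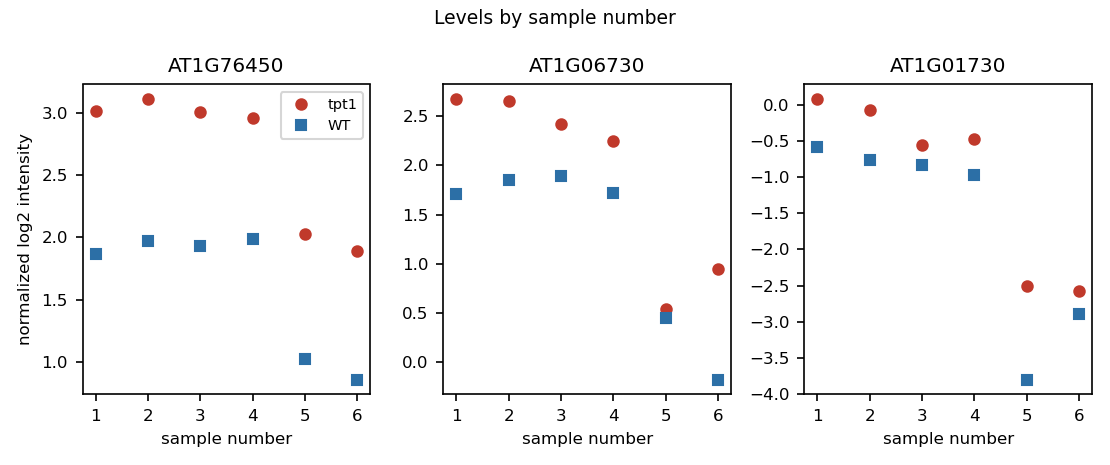
Normalized log2 intensity by sample number in tpt1 (red circles) and WT (blue squares) for AT1G76450, AT1G06730 and AT1G01730, each panel with its own axis. In all 3 genes samples 5 and 6 lie well below the others in both genotypes, and tpt1 lies above WT at every number.

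A measure the choice did not rest on exists for 9 of the 68 genes, each of which is named on 1 further spot. For 8 of these the further spot is shared with other genes of the family, so the signal of the gene itself cannot be told apart there. In limma's fit 7 of the 9 could be tested, 5 had a difference above 0 and 0 passed an adjusted p of 0.05, while 1 had an unadjusted p under 0.05. With the sample number as a block 2 passed. Of all tested spots 56.1% had a difference above 0 and 17.5% were called higher with the block, and nothing is drawn from counts over 7 spots.

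The 2 were the further spots of AT2G25870 and AT1G05340. The second spot of AT2G25870, the only one with no other gene on it, was at -0.88 to 0.13 in tpt1 (median -0.49), against -1.45 to -0.56 in WT (median -0.65). Its difference was 0.38 (SE 0.21, limma adjusted p = 0.286; 0.0245 with the block), where the chosen spot gave 1.20, and it too was above WT in 6 of 6 pairs. The spot of AT1G05340, shared with AT1G56060, AT2G32210, AT2G32200 and AT2G32190, was at -0.47 to 0.72 in tpt1 (median 0.00), against -2.47 to -0.01 in WT (median -0.45). It had a difference of 0.79 (SE 0.37, limma adjusted p = 0.187; 0.0132 with the block), close to the 0.85 of the gene's own spot, in 6 of 6 pairs.

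The other tested further spots were not called in limma's fit, with or without the sample number as a block. All of them are shared, so whether the gene itself followed its own spot cannot be told. GH9B12 has a spot in common with GH9B11, GH9B10 and GH9B9, which had a difference of 0.21 (SE 0.38, limma adjusted p = 0.776) where its own gave 1.02. The spot of AT3G46950, with 3 relatives, was at -0.01 (SE 0.21, limma adjusted p = 0.99), and that of AT4G17440, with AT3G60410, at 0.29 (SE 0.53, limma adjusted p = 0.782). On both, tpt1 was above WT in 3 of 6 pairs.

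A spot shared by AGL54, AGL53 and AGL93 had a difference of 0.85 with an SE of 1.11 (n = 5 and 5, limma adjusted p = 0.686), and was above WT in 1 of 4 complete pairs. With the block its difference was -0.18. The one shared by AT2G46220, AT1G79510 and AT1G16320 was at -0.55 (SE 0.51, n = 6 and 5, limma adjusted p = 0.554). For AT3G50880 the shared spot had values above 0 in 1 tpt1 and 3 WT samples and for AT1G03810 in 4 tpt1 and 0 WT samples, too few to test.

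The limits of the rule cut through a continuous range. Just inside the lower limit lay OSB1 (0.51), AT1G32190 (0.51) and AT2G37580 (0.52), and just outside it AT4G24750 (0.49), AT4G23110 (0.49) and AT5G49120 (0.48). At the upper limit AT2G29870 (1.21), AT2G25870 (1.20) and AT2G48090 (1.20) were inside, and GH9B16 (1.23), AT2G35450 (1.38) and AT3G06200 (1.45) outside. The demand on all 6 pairs was met by some genes only narrowly. The smallest pair difference was 0.001 for AT2G47390, 0.002 for AT2G37580 and 0.02 for AT1G22040. With median centring each of these was above WT in 5 of 6 pairs. Of the 68 genes 18 lie on chromosome 1, 19 on chromosome 2, 7 on chromosome 3, 14 on chromosome 4 and 10 on chromosome 5, where the 478 spots had 113, 90, 91, 94 and 88 in that order, and the other two had no chromosome in the gene table.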

How the data were processed

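Spot intensities of 12 array samples, 6 of tpt1 and 6 of WT, were used as deposited, on a linear scale. The sources used here do not give how the authors read, scaled or corrected them, and a reading of 0 may be a value set to 0. Zeros were taken as missing, and log2 values quantile normalized. The test was limma 3.58.1 (trend in the prior variance; R 4.3.3, statmod 1.5.0) on spots with at least 4 values in each group, with Benjamini-Hochberg adjustment over all of them and a threshold of 0.05. SE is limma's moderated standard error. The fits were also run on simulated data. No outcome of that run is given here, so nothing about the calls in these samples is drawn from it. Python 3.11.15 with matplotlib 3.10.9 made the figures.

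Spots were named from the platform annotation and, for all 68 genes, a RefSeq gene table of assembly TAIR10.1, used for names and chromosomes only. The planned counts of promoter motifs, protein features and keyword classes need sequences or descriptions not used here, so roles were assigned by hand. Ranges or means with SD are given for the 10 largest differences, the 5 brightest, the 5 dimmest and the 5 widest gaps. They are also given for genes with a further spot, apart from AT1G03810, and every member is named. The members, the roles and this rule were chosen with earlier results of these data known.

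Samples of the same number were checked as pairs: with group means subtracted, their correlation over spots was 0.47 to 0.61, and for 12 of 12 samples the closest sample of the other genotype bore the same number. The numbers thus pair the samples, although the labels do not say what a number marks. Alternatives were the scale, pseudocounts, the filter, the prior variance, the threshold, blocks, averaged neighbours and samples left out. Those that leave out both samples of 1 number or of 2 neighbouring numbers, and those for the further spots, were added after the data had been seen.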

Additional observations from a re-analysis of the deposited data

Results flagged for a closer look

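In each group of 6 values of the 68 genes, the highest and the lowest sample were compared with the rest by the gap to the nearest other sample, divided by the whole range, against Dixon's critical value. A sample exceeded it in 9 of 136 groups. Independent values from a normal distribution would give about 6.8. Neighbouring numbers resembled each other, so that count is only a rough guide here. In tpt1, sample 4 stood at -3.95 for AT4G13680 against -0.31 to 0.88 in the others, sample 6 at 0.057 for AT5G38310 against 1.10 to 1.68, sample 2 at -0.90 for AT4G12740 against -0.57 to -0.46, and sample 5 at -0.68 for AT3G04650 against 0.36 to 0.88. In WT, sample 4 stood at -6.48 for AT4G13680 against -0.94 to 0.03, sample 3 at -4.56 for AT2G48090 against -1.46 to -0.37, and sample 1 at -2.90 for AGL54 (AT5G27090) against -1.84 to -1.24. Sample 5 of WT stood at -4.22 for AT1G04330 against -2.94 to -2.47, and sample 2 of WT at -1.20 for AT4G17440 against -0.55 to -0.34. AT4G13680 was low in sample 4 of both genotypes.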

How the results depend on the processing

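The median difference of the 68 genes, 0.82 as reported, was 1.48 without further normalization, 0.62 with median centring, 0.64 with a pseudocount of 0.05 and 0.33 with one of 0.5. A pseudocount shrinks the differences of dim genes by its construction. Leaving out 1 sample gave 0.78 to 0.87. With median centring 4 genes changed sign, AT2G27290 (-0.84), AT4G22830 (-0.75), AT2G46220 (-0.11) and AT1G06730 (-0.054). The cause was not tested. Genes above WT in all 6 pairs numbered 53 to 66 of 68 on the other scales and filters. The 32 calls in limma's fit became 61 without further normalization, where 46.4% of all tested spots were called, and 20 with median centring (4.67%). They were 10 at an adjusted p of 0.01 and 64 with the sample number as a replicate block (17.5%), which kept all 32. They became 8 with neighbouring numbers as a random block (1.65%). Leaving out numbers 1 and 2 gave 15, leaving out 3 and 4 gave 10, and leaving out 5 and 6 gave 43. With neighbours averaged limma called 40 with the set as a block (6.88%) and 0 with no block (0%). In the fit with no block 36 had an unadjusted p under 0.05, a count given without a share over all spots. Leaving out 1 sample gave 23 to 30. For an adjusted p of 0.01 and for samples or numbers left out, no share of all spots is given. Nothing is read from those counts. Of the 7 tested further spots, 0 were called as reported. Without further normalization 4 were called, beside 46.4% of all tested spots, and with the replicate block 2, beside 17.5%. Nothing is drawn from counts over 7 spots. Signal over background was not given, so what dimness limits could not be measured.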
